A study of Mus musculus with 24 samples.

Results

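The transcriptional response of C2C12 cells to differentiation medium was compared between cells with an empty vector and cells with a short hairpin RNA (shRNA) against the RNA helicase p68, encoded by Ddx5. The measure was the interaction of medium and shRNA: the change from growth medium (GM) to differentiation medium (DM) in p68 shRNA cells, minus the same change in vector cells, in log2 units. All 24 arrays of the series entered it, 12 of an array design whose titles end in MA and 12 of a second design whose titles end in MB, and each design was fitted alone with 4 groups of 3 arrays. Of 14367 probe sets tested on MA, 1430 had an interaction that passed the threshold, an adjusted p of 0.05 from limma after Benjamini-Hochberg adjustment, which is 9.95% of those tested. They stood for 1103 of 8639 named genes. Of 19303 probe sets tested on MB, 75 passed, or 0.389%, for 70 of 8695 named genes.

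C2C12 is a line of mouse skeletal myoblasts. It proliferates in GM, and in DM it stops dividing and forms multinucleate myotubes. The 4 groups were vector cells in GM, vector cells in DM, p68 shRNA cells in GM and p68 shRNA cells in DM, and both constructs were in pSuperR, a retroviral vector from which short hairpins are transcribed. The labels do not say whether the cells were a clone or a pool, how long they were kept in DM, or whether replicates were separate cultures. The p-values therefore reflect array-to-array spread alone, part or all of which could be technical. The summed signal of 10 myoblast and muscle genes lay between 6246 and 6451 in vector cells in GM and between 33418 and 51769 in DM. In shRNA cells it lay between 4918 and 5541 in GM and between 28446 and 32097 in DM. Bright genes dominate this sum, and its member Myf5 lay between 18.3 and 60.5 over all MA arrays. The sum of 14 smooth muscle markers lay between 20577 and 21737 in vector cells in GM, with Acta2 at 6700 to 7223. The sums alone therefore do not settle the cell type.

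p68 is a DEAD-box RNA helicase that takes part in splicing and microRNA processing and acts as a coactivator of transcription factors, MyoD among them. MyoD and its relatives, the myogenic regulatory factors, work with the MEF2 proteins to switch on the genes of the contractile apparatus. Exit from the cell cycle, in which genes for DNA replication and mitosis are shut down, accompanies this switch.

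The arrays gave 1 signal per probe set on a linear scale, and changes were computed on log2(signal + 15), so that changes of genes with low signal are understated. Signals are quoted in the order of the replicate numbers. The ± of a log2 change is the standard error from limma. It rests on 1 variance per probe set, pooled over the 4 groups of 3 arrays and moderated by the mean-variance trend. It does not show the spread of a single group. The MA arrays correlated with the others of their own group at 0.951 to 0.983, and the vector group in DM was the most spread, with a median SD of 0.241 per probe set against 0.157 to 0.161 in the other groups. MB arrays were noisier: their median residual SD was 0.523 against 0.214 on MA, and the vector group in DM again had the highest median SD (0.472 against 0.364 to 0.388). The 3′ to 5′ ratio of the Gapdh control probe sets, a sign of RNA quality, lay between -0.223 and -0.109 (log2) in the vector arrays in DM and between -0.249 and -0.0652 in the shRNA arrays in DM on MA.

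Ddx5, the target of the shRNA, had signals of 483.3, 420.4 and 489.2 in vector cells in GM and 673.5, 541 and 407.9 in vector cells in DM at its brightest probe set. With the shRNA it had 351.4, 388.3 and 376.5 in GM and 373.1, 302.5 and 302.5 in DM. At this probe set the shRNA arrays lay below the vector arrays in both media without overlap. Its interaction was -0.38 ± 0.22 (adjusted p = 0.332), with a 95% interval of -0.85 to 0.09, so that a different depth of knockdown in the 2 media was not shown. Other tested Ddx5 probe sets had interactions between -0.12 and 0.23, none of which passed. Their differences between the constructs are not given here. The paralogue Ddx17, which encodes p72, had an interaction of 0.08 ± 0.13 (adjusted p = 0.778, interval -0.20 to 0.36).

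Most of the interaction was a smaller response in the shRNA cells. Each passing probe set was sorted by its response in vector cells and in shRNA cells. It was called blunted where the response of vector cells passed and that of shRNA cells was smaller or did not pass, enhanced where the response of shRNA cells passed and was larger, and reversed where both passed with opposite signs. Of the 1430 probe sets on MA, 1219 (85.2%) were blunted, 163 (11.4%) enhanced and 44 (3.08%) reversed, and 4 fitted none of these. The responses that this sorting used passed at 49.3% of all MA probe sets in vector cells and at 33.9% in shRNA cells. The blunted ones held 541 rises and 678 falls. Of the rises, 257 kept a smaller rise that passed and 284 had none that passed, and of the falls 439 kept a smaller one and 239 had none that passed. The first group of rises had a median log2 change of 2.06 in vector cells and 0.93 in shRNA cells, and the first group of falls -1.85 and -0.86. The enhanced ones held 83 rises and 80 falls. In 60 of these rises and 65 of these falls the response of vector cells did not pass. In the other 23 and 15 it passed with the same sign. Without replicate 2 of the shRNA group in DM, 335 blunted rises, 447 blunted falls, 48 enhanced rises and 51 enhanced falls passed. The enhanced rises also fell to 55 without replicate 3 of the shRNA group in GM and 51 without replicate 3 of the shRNA group in DM, the enhanced falls to 46 and 53 without replicates 2 and 3 of the shRNA group in GM, and the reversed ones to 27 without replicate 1 of the vector group in GM and 29 without replicate 4 of the shRNA group in GM. Without replicate 3 of the vector group in DM, which stood furthest from its own group, 2045 probe sets passed in place of 1430, of which 1359 were among the 1430. Among the 1430 probe sets that were still tested, none changed the sign of its interaction under any of the alternatives tried.

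**Figure D1:**
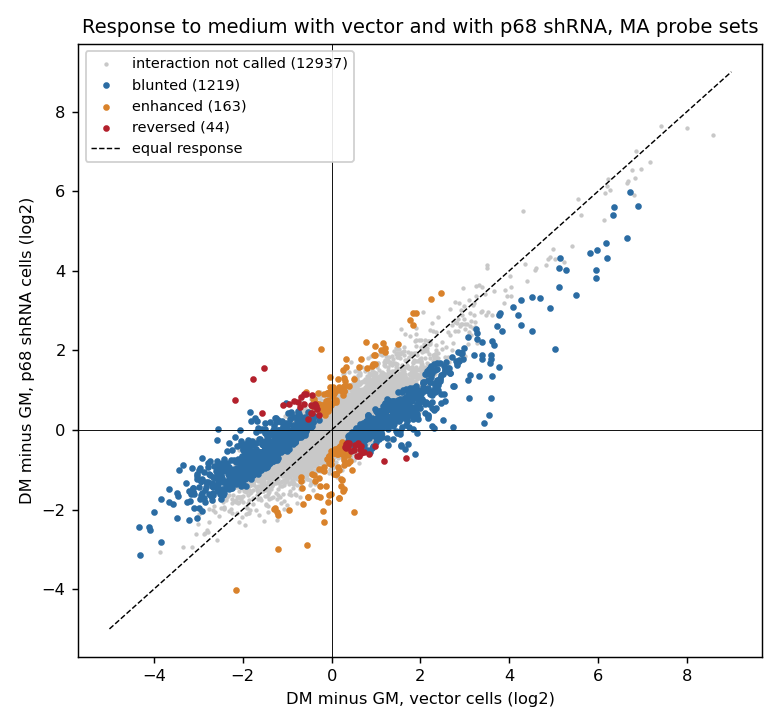
Log2 change from GM to DM in vector cells (horizontal) against p68 shRNA cells (vertical) for each MA probe set tested, coloured by class where the interaction passed. The 1219 blunted probe sets (blue) lie between the horizontal axis and the dashed line of equal response or close to it, the 163 enhanced ones (orange) beyond that line, and the 44 reversed ones (red) in the other two quadrants; the classes are defined by these values, so their places are a description.

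Probe sets were also sorted by the change of medium averaged over both constructs. This average would be uncorrelated with the interaction if the 4 groups varied alike. The vector group in DM was more spread, which ties both estimates together in the direction of blunting, so the counts are a description. On MA, 3859 probe sets (26.9%) rose on average, and among them the interaction passed downwards at 490 and upwards at 63. Of the 4066 (28.3%) that fell on average, it passed upwards at 646 and downwards at 58. Of the 6442 without a called average change, it passed upwards at 78 and downwards at 95. Among the 1011 average rises of at least 2-fold (7.04%), the median interaction was -0.44, and among the 952 such falls (6.63%) it was 0.62, against 0.01 over all probe sets. On MB the 1051 average rises (5.44%) held 21 downward and 4 upward interactions, and the 1263 average falls (6.54%) held 33 upward and 1 downward.

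The difference lay more often in DM than in GM. Of the 1430 MA probe sets, 931 differed between the constructs in DM alone by their own adjusted p, 225 in GM alone, 113 in both and 161 in neither. Over all probe sets tested, 16.9% differed between the constructs in DM and 6.56% in GM. The 3 shRNA arrays and the 3 vector arrays did not overlap in DM at 84.7% of the 1430 probe sets, against 30.7% of all tested, and in GM at 57.8% against 29.95%. Since these differences are the parts from which the interaction is formed, the shares describe it and do not test it.

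**Figure D2:**
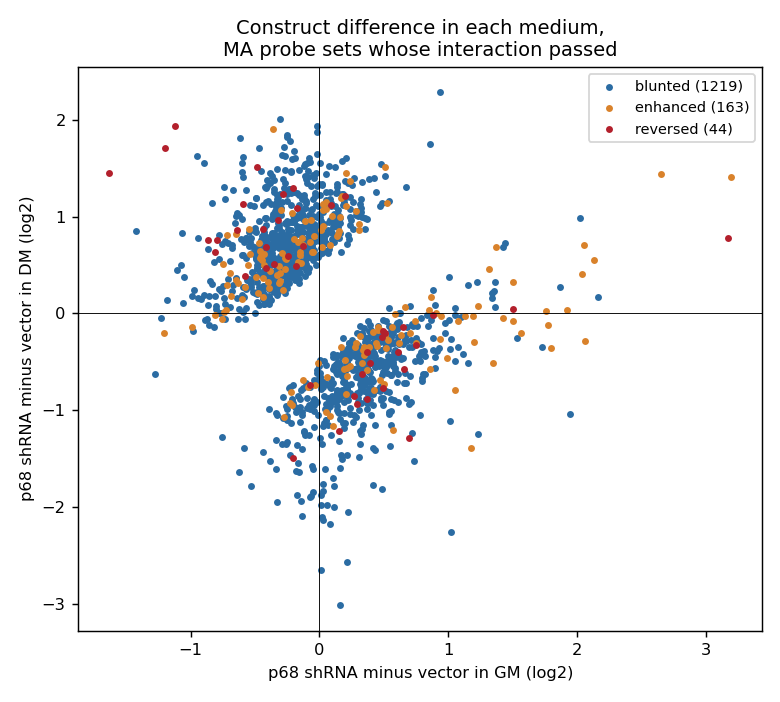
Difference between p68 shRNA and vector cells in GM (horizontal) and in DM (vertical), in log2 units, for the MA probe sets whose interaction passed; colours as in the plot of responses. The empty diagonal band is a result of the selection. Most blunted probe sets (blue) spread vertically around a GM difference near 0, and a smaller number, many of them enhanced falls (orange), lie far to the right near a DM difference of 0.

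Among the genes of the contractile apparatus, the anchoring structures of the sarcomere were blunted most often. Of 23 tested genes of the Z-disc and M-band, which hold the filaments in register, 12 had an interaction that passed downwards, none upwards, and the median was -0.86. Over all MA probe sets 4.48% passed downwards and 5.48% upwards, with a median of 0.01. Ankrd1, a stretch-responsive ankyrin repeat protein of the Z-disc and I-band, had signals of 272.1, 309 and 338.7 in vector cells in GM and 3723, 4195 and 3637 in DM. In shRNA cells it had 361.7, 392.7 and 317.3 in GM and 649.7, 565.6 and 699.9 in DM. The constructs overlapped in GM and were apart in DM by more than 5-fold on average. The rise was 3.59 ± 0.12 with the vector and 0.81 ± 0.12 with the shRNA, an interaction of -2.78 ± 0.17 (adjusted p = 5.93e-07), and a second probe set of Ankrd1 gave -1.83. Actn2, the actinin that crosslinks actin at the Z-disc, reached 1888, 1876 and 2267 in DM with the vector and 535.6, 487.2 and 576.1 with the shRNA, from signals under 10 in every array in GM. Its interaction was -1.81 ± 0.19 (adjusted p = 5.18e-05). The Z-disc proteins Myoz2 (-2.11 ± 0.33) and Csrp3 (-1.85 ± 0.26) were blunted to a like extent. Values for Ttn (-0.21), Tcap (0.22) and Xirp1 (0.34) of the same list did not pass.

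The promoter of Ankrd1 is printed because Ankrd1 had the largest blunted rise after Igf2 among probe sets that name a single gene, and because CAGGTG, an E-box of the kind that MyoD and other bHLH factors can bind, lies in it. This and the other windows were chosen after the values were seen. It is taken from RefSeq (GRCm38.p6), chr19:36119845-36120044, minus strand, the 200 bases before the annotated start, with the match (CACCTG, the same site read on the other strand) in capitals 111 bases before the start.
Ankrd1: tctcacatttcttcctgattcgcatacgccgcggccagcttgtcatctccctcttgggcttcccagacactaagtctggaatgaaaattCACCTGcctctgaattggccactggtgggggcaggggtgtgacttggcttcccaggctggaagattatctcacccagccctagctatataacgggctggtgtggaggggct
The match describes the letters and is not evidence of binding. CAGGTG stood in 62 of the 344 promoters (250 bases before to 50 after the start, both strands searched) of blunted rises and 17.6% of the 9056 promoters of tested genes, and CAGCTG in 17.7% and 15.1% of the same sets. RefSeq promoters were found for 7012 of the 8639 genes tested.

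Some calcium handling genes were blunted. Of 17 tested genes that couple excitation to contraction, 5 passed downwards and none upwards, with a median of -0.68, and 8 passed downwards without replicate 1 of the vector group in DM. Cacna1s, the voltage sensor of the calcium channel of muscle, had 590.8, 557.8 and 610.2 in vector cells in DM and 174.9, 179.7 and 203.8 in shRNA cells in DM, from signals under 5 in GM. Its interaction was -1.52 ± 0.20 (adjusted p = 0.000259). Atp2a1, the calcium pump of fast muscle, had -1.47 ± 0.21. Atp2a2, the pump of slow and cardiac muscle, had -1.30 ± 0.17 at its brightest probe set, and a second probe set gave -1.36. Another, which fell in DM in both cell types, did not pass (0.32), nor did a dimmer one (-0.18).

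Of 10 thick filament genes, Myh8 and Myl4 passed downwards and Mylk2, the myosin light chain kinase of skeletal muscle, upwards (1.04, a call lost in 9 of 12 fits that left out 1 array). Of 14 thin filament genes 3 passed downwards and none upwards. The medians of the lists were -0.43 and -0.23. Tnnt3, the fast troponin T, lost its call (-0.74) in 7 of the 12 fits. The thin filament count was 1 without replicate 1 or 3 of the vector group in GM, replicate 2 of the vector group in DM, or replicate 1 or 2 of the shRNA group in DM. Myh8, the perinatal myosin heavy chain, had 296.5, 261.1 and 243.7 in DM with the vector and 47.59, 58.2 and 53.2 with the shRNA, from 5.18 to 16.8 in GM, and its interaction was -2.27 ± 0.24 (adjusted p = 5.83e-05). Myh3, the embryonic myosin heavy chain, had 2061, 2042 and 2064 with the vector and 1416, 1370 and 1338 with the shRNA in DM. Its difference of -0.51 ± 0.16 did not pass (adjusted p = 0.0581). It passed with a pseudocount of 50, with a filter at a signal of 100 and with array weights. Tpm1, a tropomyosin with many splice forms, had probe sets that went opposite ways: one rose in DM by 2.37 with the vector and 1.69 with the shRNA (-0.68, a call lost in 8 of 12 fits that left out 1 array), and another fell by 2.24 and by 0.996 (interaction 1.25, adjusted p = 7.45e-05).

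The upstream regulators of the muscle programme differed from one another. Myogenin (Myog), the factor that drives terminal differentiation, rose from 74.59, 66.1 and 92.77 to 5574, 6104 and 8902 with the vector and from 49.67, 58.03 and 75.11 to 5076, 4977 and 5613 with the shRNA. Its interaction was -0.07 ± 0.24 (adjusted p = 0.898), with a 95% interval of -0.59 to 0.45. Myod1 had -0.25 ± 0.19 (adjusted p = 0.481, interval -0.65 to 0.15), and Ckm, the muscle creatine kinase, -0.46 ± 0.20 (adjusted p = 0.167, interval -0.88 to -0.04), which passed with a pseudocount of 50. These intervals are not adjusted for the number of genes, and the misses do not show that the responses were alike. Mef2c, the MEF2 member that rises in differentiating myotubes, had 273.7, 194.4 and 98.12 in DM with the vector and 36.58, 33.6 and 20.15 with the shRNA. Its DM groups did not overlap, and the interaction was -1.96 ± 0.41 (adjusted p = 0.0073). In the same list of 10 factors, 3 passed upwards: Pax7, the paired-box factor of muscle stem cells (0.85 ± 0.19), Six4 (0.84 ± 0.18) and Tcf3, the E-protein partner of MyoD (0.85 ± 0.21, a call lost without replicate 2 of the shRNA group in DM). A second Tcf3 probe set had 0.56 and did not pass. Pax7 signals were 95.07, 75.26 and 90.66 in vector cells in DM and 176, 175.6 and 158.5 in shRNA cells in DM, and the constructs overlapped in GM.

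Some genes for fuel use in muscle were blunted. Of 18 genes of glycogen use and glycolysis, 5 passed downwards and 1 upwards, with a median of -0.37. Pygm, the muscle glycogen phosphorylase, reached 1155, 1165 and 1675 in DM with the vector and 320.3, 223.9 and 353 with the shRNA, from signals under 15 in GM, an interaction of -2.12 ± 0.31 (adjusted p = 0.000669). Stbd1, a protein that tethers glycogen to membranes, was in no list and was named for the size of its interaction. It rose from 149.7, 127.3 and 169.6 to 1350, 1429 and 1375 with the vector and from 201.2, 233.4 and 205.9 to 385.4, 360.3 and 403.1 with the shRNA, an interaction of -2.30 ± 0.16 (adjusted p = 2.47e-06). Glycogenin (Gyg), the primer of glycogen synthesis, had -1.14 and the muscle phosphoglycerate mutase Pgam2 -1.37. Hexokinase 2 (Hk2), the insulin-regulated hexokinase of muscle, rose by 1.87 with the vector and by 0.40 with the shRNA, and the ubiquitous hexokinase Hk1 was the gene that passed upwards (1.11). Of 19 genes of muscle mitochondria and fat use, 4 passed downwards, 3 of them as blunted rises and lipoprotein lipase as an enhanced fall, with a median of -0.25, and the isocitrate dehydrogenase Idh2 passed upwards (0.66). Fabp3, the fatty acid carrier of muscle, had 730.5, 749.8 and 590.6 in DM with the vector and 187.9, 174.4 and 209.5 with the shRNA, an interaction of -2.19 ± 0.21, and the muscle subunits of cytochrome oxidase Cox6a2 and Cox8b had -1.89 and -1.92. In bulk RNA, fewer cells that had differentiated and less RNA per differentiated cell cannot be told apart.

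**Figure D3:**
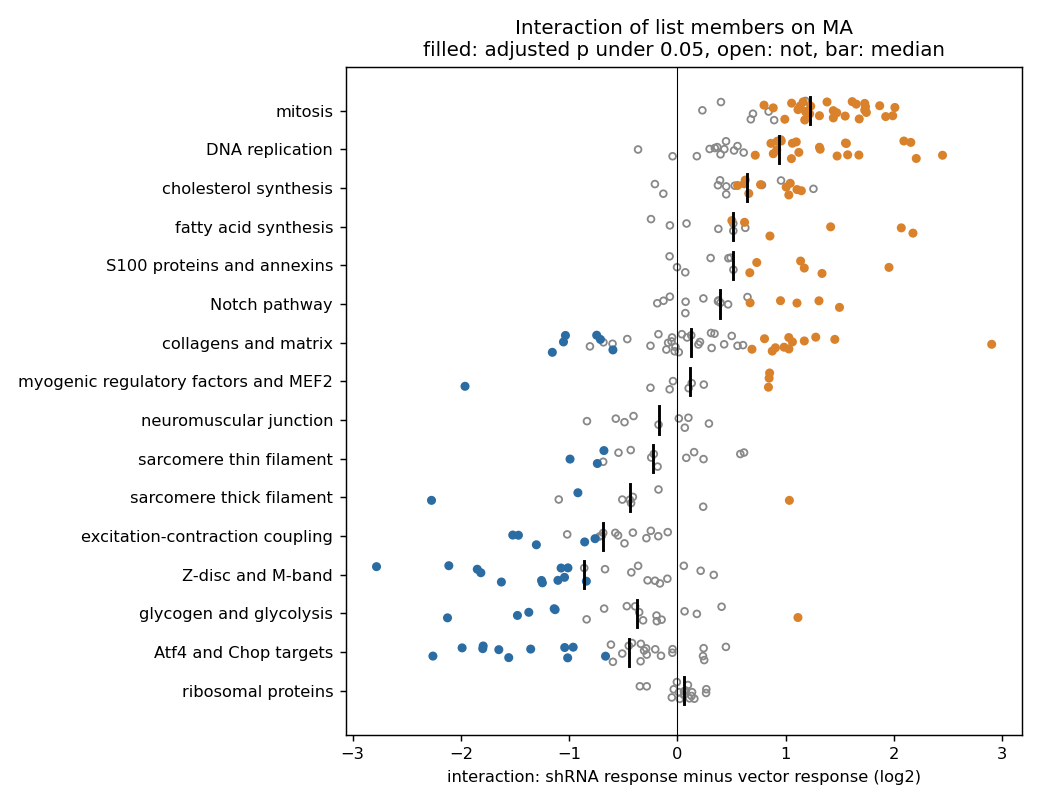
Interaction on MA (horizontal, log2) of the tested members of 16 gene lists, 1 probe set per gene; filled points passed (orange upwards, blue downwards), open points did not, and the black bar is the list's median. Mitosis (median 1.23) and DNA replication (0.94) lie to the right of 0, and Z-disc and M-band (-0.86) and excitation-contraction coupling (-0.68) to the left. None of the 17 ribosomal protein genes passed, where 9.95% of all MA probe sets did.

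Many cell cycle genes fell less in DM with the shRNA than with the vector. All 36 tested genes of the mitosis list fell in vector cells and 28 fell in shRNA cells by their own adjusted p, where 25.4% and 17.5% of all probe sets fell. The interaction passed upwards for 28 of them and downwards for none, with a median of 1.23. Of 34 DNA replication genes, 22 passed upwards and none downwards, with a median of 0.94. Cdca3, a trigger of mitotic entry, had 660.5, 672.4 and 725.6 in vector cells in GM and 76.53, 64.85 and 84.32 in DM. With the shRNA it had 566.5, 613.1 and 569.3 in GM and 263.2, 334.4 and 287.9 in DM. The lowest shRNA array in DM lay more than 3-fold above the highest vector array, and the interaction was 2.01 ± 0.17 (adjusted p = 8.74e-06). Ube2c, the ubiquitin-conjugating enzyme of the anaphase-promoting complex, had 107.3, 116.4 and 106.9 in DM with the vector and 374.1, 369.6 and 409.9 with the shRNA (1.87 ± 0.15). Bub1b, a kinase of the spindle checkpoint, had an interaction of 1.99 ± 0.22 on MA, and the mitotic kinesin Kif2c 1.93 ± 0.19 at its brightest probe set. A second Kif2c probe set gave 0.97, and another did not pass (0.21).

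Among the replication genes, Tk1, the thymidine kinase of S phase, had signals of 1374, 1913 and 1657 in vector cells in GM and 97.25, 122 and 85.82 in DM, and of 1259, 1246 and 1632 in shRNA cells in GM and 385.3, 443.2 and 372.9 in DM. The constructs overlapped in GM and were apart in DM, with an interaction of 2.09 ± 0.22 (adjusted p = 4.61e-05). Mcm5, a subunit of the replicative helicase, had 2.16 ± 0.26, and Pole, the catalytic subunit of the leading-strand polymerase, 2.21 ± 0.24. Fen1, the flap endonuclease, had the largest estimate of the list at 2.45 ± 0.53 (adjusted p = 0.00883). Its vector arrays in DM were spread over 249.2, 50.28 and 231.2, and a second Fen1 probe set gave 1.06 ± 0.16. Pcna (0.52), Mcm2 (0.40) and Rrm2 (0.30) did not pass.

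Of 25 regulators of the G1 phase, 5 passed upwards and 3 downwards. Ccnd1, the cyclin D1 that starts a new cycle, had 110.2, 91.32 and 154.2 in vector cells in DM and 376, 368.3 and 430.2 in shRNA cells in DM, from 1138 to 1578 in GM, and its interaction was 1.90 ± 0.21 (adjusted p = 7.47e-05). Cyclin E1 (Ccne1) had 1.20 ± 0.18. Gadd45a, a stress-induced growth arrest gene, rose by 3.59 with the vector and 1.88 with the shRNA (-1.71 ± 0.29). The cyclin-dependent kinase inhibitors Cdkn1a (0.31), Cdkn1b (-0.15) and Cdkn1c (-0.21) did not pass.

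The window before Kif2c is printed because Kif2c was, at its brightest probe set, among the 4 mitosis genes with the largest interaction. The window also holds TTTGAA, the core of the cell cycle homology region found in many promoters of late cycle genes. It is from RefSeq (GRCm38.p6), chr4:117178773-117178972, minus strand, with the match (TTCAAA, the same site on the other strand) in capitals 103 bases before the start.
Kif2c: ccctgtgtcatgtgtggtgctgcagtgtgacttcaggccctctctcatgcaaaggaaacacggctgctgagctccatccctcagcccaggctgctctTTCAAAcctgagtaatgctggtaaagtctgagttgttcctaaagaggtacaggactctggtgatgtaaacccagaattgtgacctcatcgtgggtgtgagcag
TTTGAA stood in 75.8% of the promoters of the mitosis list, in 11.1% of those of the DNA replication list, in 17.0% of those of all blunted falls and in 11.7% of those of tested genes. The CCAAT box (CCAAT or ATTGG) stood in 81.8%, 52.8%, 51.3% and 37.1% of the same sets. The mitosis list was chosen for its function, and its share describes these genes whether or not they were blunted.

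Some genes of the Atf4 and Chop stress response rose less with the shRNA. Of 29 tested members, 27 rose in vector cells and 18 in shRNA cells, where 23.9% and 16.3% of all probe sets rose, and the interaction passed downwards for 11 and upwards for none, with a median of -0.45. Ddit3, which encodes the stress factor Chop, had 130.9, 89.3 and 108.8 in vector cells in GM and 598.6, 591.4 and 587.6 in DM, and 187.3, 203.4 and 182.5 in shRNA cells in GM and 203.7, 163 and 228.8 in DM. The shRNA groups in GM and DM overlapped, and the interaction was -2.26 ± 0.20 (adjusted p = 1.74e-05). Gtpbp2, a GTPase of ribosome rescue, had 427.7, 506.8 and 540.5 in DM with the vector and 110.1, 109 and 120.2 with the shRNA (-1.99 ± 0.18), and the constructs overlapped in GM. Cth, the last enzyme of cysteine synthesis, had -1.80 ± 0.36 and the stress-induced factor Atf3 -1.79 ± 0.29. Atf4 itself had -0.66. The amino acid enzymes Asns (-0.29), Psat1 (0.24) and Mthfd2 (-0.05), classical Atf4 targets, did not pass. Of 17 aminoacyl-tRNA synthetases, which charge tRNAs, Rars (-1.001 ± 0.15), Wars (-0.97 ± 0.18) and Lars (-0.70 ± 0.14) passed downwards and none upwards, and 5 passed without replicate 3 of the vector group in DM.

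The window before Atf3 is printed as that of a blunted Atf4 target that holds TGATGNAA, the composite site of C/EBP and ATF proteins. It is from RefSeq (GRCm38.p6), chr1:191183334-191183533, minus strand, with the match (TTGCATCA, the same site on the other strand) in capitals 110 bases before the start.
Atf3: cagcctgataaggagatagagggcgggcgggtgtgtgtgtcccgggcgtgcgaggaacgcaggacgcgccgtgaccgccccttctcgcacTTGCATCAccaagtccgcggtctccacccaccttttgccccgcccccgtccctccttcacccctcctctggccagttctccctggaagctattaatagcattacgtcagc
TGATGNAA stood in 9 of the 30 promoters of the Atf4 and Chop list and 5 of the 10 promoters found for the synthetases, against 4.94% of those of blunted rises and 2.25% of those of tested genes. The first of these lists was drawn up as targets of the factors that bind this site.

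Part of the lipid synthesis genes had an interaction that passed upwards. Of 13 fatty acid synthesis genes, 6 passed upwards and none downwards, with a median of 0.52. Fads2, the delta-6 desaturase, fell from 487.1, 548.2 and 527.7 to 126.4, 103.7 and 109.4 with the vector, and was 464.1, 442.8 and 400.5 in GM and 404.6, 422.8 and 483.6 in DM with the shRNA. The fall was -2.07 ± 0.12 with the vector and the change 0.00 ± 0.12 with the shRNA (interaction 2.07 ± 0.16, adjusted p = 5e-06). Fatty acid synthase (Fasn) had 1.42 ± 0.20, ATP citrate lyase (Acly) 0.86 ± 0.16 and the fatty acid carrier Fabp5 2.18 ± 0.15. Of 20 cholesterol synthesis genes, 10 passed upwards and none downwards, with a median of 0.64. Their responses in vector cells were small, and 7 of the 10 were enhanced rises and 3 blunted falls. Mvd, the decarboxylase of the mevalonate pathway, had 149.3, 140.3 and 176.9 in DM with the vector and 307.2, 393.1 and 395.2 with the shRNA, the constructs overlapping in GM (1.11 ± 0.23, adjusted p = 0.00792). The count of 10 fell to 4 without replicate 2 of the shRNA group in DM, 5 without replicate 3 of the vector group in GM, 6 without replicate 3 of the shRNA group in GM and 6 without a mean-variance trend.

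S100 proteins are small calcium-binding proteins, and some of them bind annexins. Of 13 tested members of these families, 6 passed upwards and none downwards (median 0.52), each as a blunted fall. S100a4 had 6194, 6602 and 6985 in vector cells in GM and 1008, 946.1 and 982.2 in DM, and 6819, 7036 and 5747 in shRNA cells in GM and 3765, 4047 and 3582 in DM. The interaction was 1.96 ± 0.14 (adjusted p = 2.51e-06), and Anxa6 (1.34 ± 0.21), S100a10 (1.17 ± 0.14) and S100a6 (1.14 ± 0.14) followed.

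Among matrix genes the directions were mixed: of 43 tested, 12 passed upwards and 6 downwards, with a median of 0.13. The basement membrane components Nid1 (1.46 ± 0.21), Lamb1 (1.28 ± 0.29), Col4a1 (1.03) and Col4a2 (0.88) were among the upward ones, and the thrombospondins Thbs1 (-1.05) and Thbs2 (-1.15) among the downward ones. A second Nid1 probe set (0.03) and others of Lamb1 (0.87 and 0.71) did not pass. The fibrillar collagens Col1a1 (0.19) and Col3a1 (0.04) did not pass.

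Notch receptors, when bound by ligands on a neighbouring cell, switch on Hes and Hey repressors, which hold back differentiation. Of 16 Notch pathway genes, 5 passed upwards and none downwards, with a median of 0.39. Of the 5, Notch1 and Heyl were enhanced rises, Notch3 and Hes1 reversed and Jag2 a blunted fall. Of the receptors, Notch3 had 353.9, 395.4 and 336.4 in vector cells in GM and 231.9, 249.6 and 316.6 in DM, and 270.6, 236.5 and 285.5 in shRNA cells in GM and 514.3, 483.3 and 491.5 in DM, an interaction of 1.31 ± 0.18 (adjusted p = 0.000398). A second Notch3 probe set was an enhanced rise (1.37). Notch1 had 0.67. The ligand Jag2 fell by 1.16 with the vector and by 0.20 with the shRNA (0.95 ± 0.23). Of the targets, Heyl rose by 0.67 with the vector and 1.78 with the shRNA (1.11 ± 0.22), and Hes1 fell with the vector and rose with the shRNA. Hes1 had 149.6, 141.2 and 145.6 in GM and 93.71, 78.84 and 105.7 in DM with the vector, and 84.15, 151.1 and 149.4 in GM and 239.7, 233.8 and 272.2 in DM with the shRNA. The interaction of Hes1 was 1.498 ± 0.25 (adjusted p = 0.00203), and Hey1 (-0.19) and the ligand Dll1 (-0.13) did not pass.

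Among the enhanced rises named for their size was Cdh15, the M-cadherin of myoblasts and satellite cells. It had 744.4, 801.7 and 777.2 in GM and 780.3, 1039 and 1125 in DM with the vector, and 418.7, 533.2 and 420.2 in GM and 1281, 1469 and 1431 in DM with the shRNA. The shRNA arrays lay below the vector arrays in GM and above them in DM, and the interaction was 1.26 ± 0.19 (adjusted p = 0.000943). Itga6, the laminin-binding integrin alpha-6, had the same order, with 141.2, 119.9 and 121.4 in DM with the vector and 264.5, 222.2 and 225.5 with the shRNA (1.47 ± 0.25). A second Itga6 probe set had 1.07 and did not pass. Lmnb2, lamin B2 of the nuclear envelope, rose by 0.94 with the shRNA and changed by -0.31 with the vector (1.25 ± 0.17). A second Lmnb2 probe set rose by 1.02 with the vector and 1.57 with the shRNA, and its interaction did not pass (0.56). Dipk2a, the other enhanced rise named for its size, lost its call in 8 of 12 fits that left out 1 array. A second Dipk2a probe set had 1.00 and did not pass.

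The enhanced falls named for their size came from signals that were higher in shRNA cells in GM. Sfrp2, a secreted modulator of Wnt signalling, had 260.6, 229 and 297.8 in vector cells in GM and 2680, 2133 and 2777 in shRNA cells in GM, and 92.31, 107.6 and 113.7 against 292.4, 300.8 and 311.2 in DM. The constructs did not overlap in either medium, and the fall was -1.21 ± 0.13 with the vector and -2.998 ± 0.13 with the shRNA (interaction -1.79 ± 0.18, adjusted p = 4.61e-05). Plin4, a lipid droplet coat protein, had 61.41, 57.28 and 81.19 in vector cells in GM and 341.7, 319.3 and 306.3 in shRNA cells in GM, and between 18.8 and 63.6 in DM in both. Lipoprotein lipase (Lpl) had 33.23, 41.76 and 32.62 against 204.7, 151.5 and 177.9 in GM, and its constructs overlapped in DM. The interactions were -2.34 ± 0.32 for Plin4 and -1.89 ± 0.24 for Lpl, and that of Cd24a, a surface sialoglycoprotein, was -1.85 ± 0.36. The summed signal of 9 adipocyte markers on the array, 5 of them tested, was 764 to 817 in shRNA cells in GM. It was 431 to 502 in vector cells in GM and 274 to 429 in DM in both. Plin4, named for the size of its interaction, is a member and made up most of the gap in GM. The sum therefore largely repeats the Plin4 values. Of the defining members of the list, Adipoq stayed under 10, Lep under 12 and Pparg under 58 in every array. Cebpa lay between 114 and 307 over all arrays, at 259 to 307 in shRNA cells and 210 to 273 in vector cells in GM, and the part of such cells in the result was not tested.

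**Figure D4:**
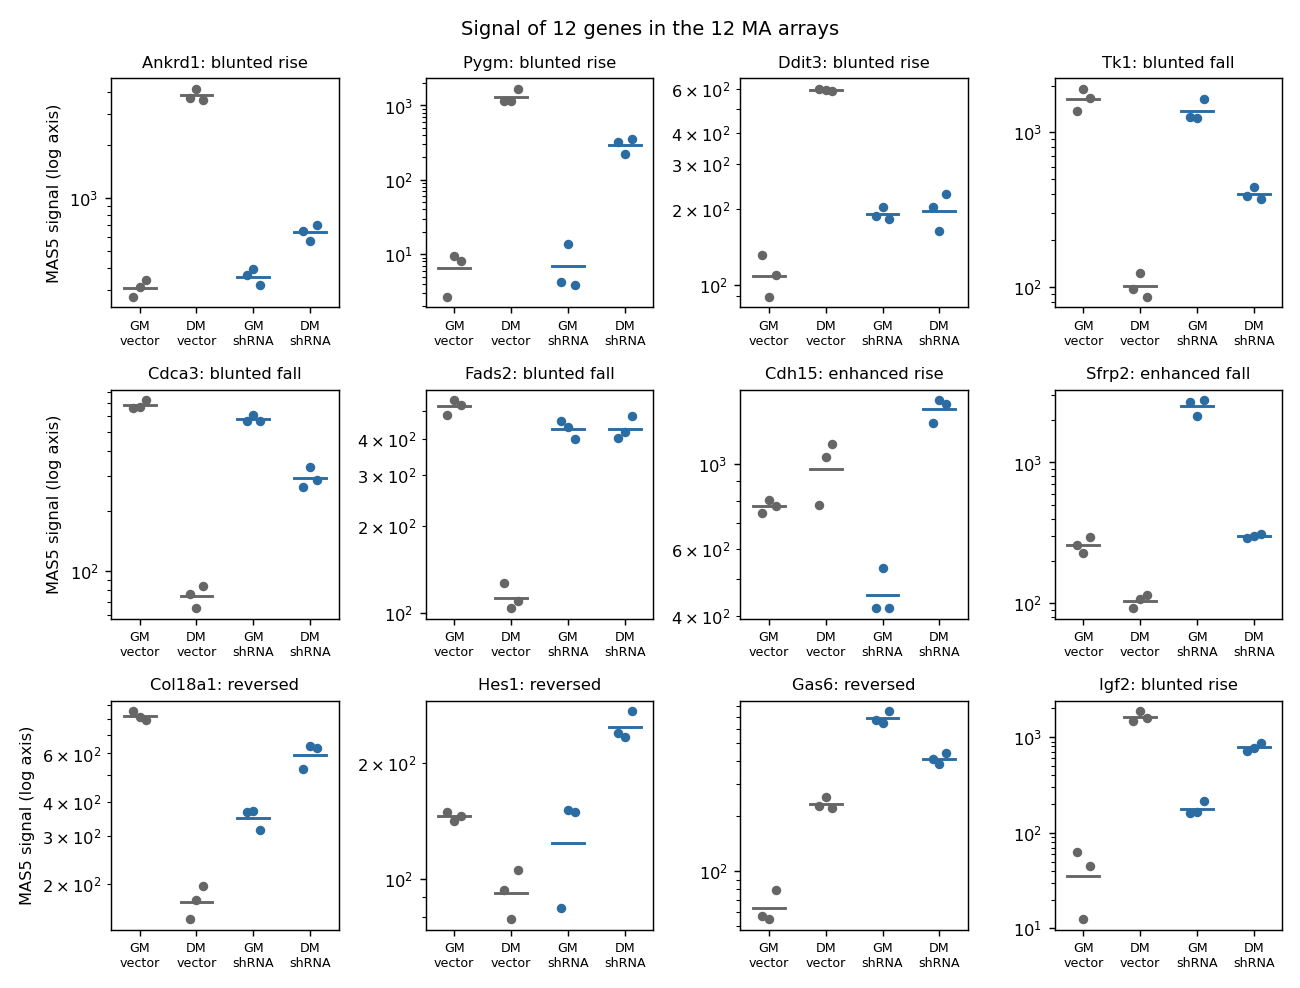
MAS5 signal (log axis) of 12 genes in the 12 MA arrays; grey points are vector and blue points p68 shRNA arrays, and the line is the mean of 3. In the blunted rises the vector arrays in DM stand above the shRNA arrays in DM (Ankrd1 3637 to 4195 against 565.6 to 699.9), in the blunted falls below them (Cdca3 64.85 to 84.32 against 263.2 to 334.4), and Sfrp2, Gas6 and Igf2 differ in GM as well.

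Igf2, the insulin-like growth factor that myoblasts secrete as they differentiate, had the largest blunted rise among probe sets that name a single gene and differed in both media. It had 62.85, 12.44 and 44.43 in GM and 1479, 1871 and 1575 in DM with the vector, and 160.2, 166.5 and 213.4 in GM and 718.9, 772.1 and 872.4 in DM with the shRNA. The shRNA arrays were higher in GM and lower in DM without overlap. The rise was 5.04 ± 0.27 with the vector and 2.05 ± 0.27 with the shRNA, an interaction of -2.99 ± 0.38 (adjusted p = 0.00023). It was -2.55 without replicate 3 of the vector group in GM, the lowest array. The binding proteins Igfbp2 (1.84 ± 0.16) and Igfbp6 (1.27 ± 0.19) passed upwards as blunted falls, and Igf1 (0.14) and the receptor Igf1r (0.19) did not pass.

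Of the 44 reversed probe sets, 23 fell with the vector and rose with the shRNA, and 21 did the opposite. Col18a1, the basement membrane collagen from which endostatin is cut, had 857.9, 813.5 and 796 in GM and 148.1, 174.9 and 195.9 in DM with the vector, against 365.1, 370.3 and 315.1 in GM and 524.8, 636.7 and 626.9 in DM with the shRNA. The 4 groups did not overlap, and a change of -2.16 ± 0.12 stood against one of 0.74 ± 0.12 (interaction 2.90 ± 0.17, adjusted p = 5.93e-07). Gas6, a ligand of the TAM receptors, rose from 57, 54.72 and 79.22 to 227.5, 254 and 222.3 with the vector and fell from 668.3, 646.9 and 749.2 to 408.5, 386.8 and 445.1 with the shRNA (-2.39 ± 0.19, adjusted p = 4.43e-06). Sat1, an enzyme of polyamine breakdown, had -1.98 ± 0.25. Tead2, a partner of Yap, had 1.56 ± 0.27 and olfactomedin 1 (Olfm1) 1.51 ± 0.23. Other Olfm1 probe sets had 0.68 and 0.77 and did not pass.

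On MB the calls depended on how the variance was modelled. With a mean-variance trend, 43 probe sets passed upwards (0.223%) and 32 downwards (0.166%). Without the trend 0 passed, the lowest adjusted p being 0.0728, while 1479 had an unadjusted p under 0.05, against 1633 (8.46%) with the trend. Of the 75, 60 were blunted (25 rises and 35 falls), 12 enhanced (7 rises and 5 falls) and 1 reversed, where the response of vector cells passed at 9.21% of all MB probe sets and that of shRNA cells at 4.85%. On MB, 51 of the 75 differed between the constructs in DM alone and 11 in GM alone. Over all MB probe sets tested, 1.17% differed in DM and 0.275% in GM, whether or not they differed in the other medium. With 1 array left out the total lay between 36 (replicate 1 of the vector group in GM) and 81 (replicate 1 of the vector group in DM), and it was 39 without replicate 2 of the shRNA group in GM or in DM, 40 without replicate 3 of the shRNA group in GM, 44 without replicate 3 of the vector group in GM, and 48 and 49 without replicates 3 and 1 of the shRNA group in DM.

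Bub1b had 96.08, 63.4 and 161.5 in vector cells in DM and 780.3, 889 and 1127 in shRNA cells in DM at its brightest MB probe set, from 2274 to 2890 in GM (3.14 ± 0.33, adjusted p = 0.000173). A dimmer Bub1b probe set on MB had -0.87 and did not pass. Dnmt1, the maintenance DNA methyltransferase, had 56.55, 43 and 29.59 in DM with the vector and 374.5, 471 and 292.6 with the shRNA, the constructs overlapping in GM (2.66 ± 0.44, adjusted p = 0.00753). Cdca8, a subunit of the chromosomal passenger complex, had 1.87 ± 0.24. Aff3, of a family of transcription elongation factors, rose from 13.81, 16.1 and 41.77 to 1016, 900.9 and 928.2 with the vector and from 231.8, 128.9 and 136.8 to 481.5, 487.9 and 704.1 with the shRNA (-3.01 ± 0.42). A second Aff3 probe set on MB had 0.65 and did not pass. Gin1 (-3.31 ± 0.54) was a blunted rise, but a second Gin1 probe set on MB had -0.47 and did not pass. Mybpc2, a myosin-binding protein of fast muscle, had the largest estimate (-3.59 ± 0.75) but lost its call in 10 of 12 fits that left out 1 array.

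Among the enhanced MB genes, E2f2, a transcription factor of the cell cycle, had 1502, 1575 and 1618 in GM and 2511, 2534 and 3506 in DM with the vector, and 610.8, 473.7 and 568.9 in GM and 2263, 2654 and 2720 in DM with the shRNA. Its constructs overlapped in DM and were apart in GM, and the interaction was 1.34 ± 0.23 (adjusted p = 0.0098). A second E2f2 probe set on MB had 0.73 and did not pass. Nfib, a nuclear factor I protein, rose with the shRNA to 1455, 1156 and 1031, from 465.5 to 588, and had 270 to 340.6 in DM with the vector (1.79 ± 0.28). Other Nfib probe sets on MB had 1.20 and 1.70 and did not pass. Hspb6, a small heat shock protein (-1.61 ± 0.27), and Slc38a2, an amino acid transporter (-1.44 ± 0.23), were enhanced falls. A second Slc38a2 probe set on MB had -0.23 and did not pass. Mfap3l was the 1 reversed gene, with 283.4, 414.8 and 307.5 in DM with the vector and 968.1, 968.6 and 1012 with the shRNA (2.29 ± 0.33, adjusted p = 0.00346).

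Genes that passed on MA were compared with MB, by different probe sets for 227 genes and by the same one for 1. The labels do not say whether the designs shared RNA. Of 131 genes that passed upwards on MA and had a tested MB probe set, 80 had the same sign on MB and 6 passed there, and of 97 that passed downwards 67 had the same sign and 8 passed. None passed in the opposite direction. Over all 2636 genes tested on both designs, 58.8% had the same sign, a share close to that of the upward genes. The MB calls counted here rely on the mean-variance trend. The genes that passed alike were Bub1b, Ccne1, Cotl1, Dnmt1, Grk6 and Mcm5 upwards, and Dusp8, Gyg, Il6st, Pacsin3, Rassf1, Rnf185, Snapin and Synpo2 downwards.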

How the data were processed

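The authors deposited 1 linear intensity per probe set and array. Per the submitters' processing notes the tool was MAS5, which weighs perfect-match against mismatch probes to give 1 signal. The version is not given in the sources used here. By its values, every array had been scaled to a trimmed mean (2% off each end) of 150.1 on MA and 150.0 on MB. No further scaling was applied. Control probe sets (64 per design) were left out, and the rest were tested if 3 or more of the 12 arrays had a signal of at least 30. Each design was fitted as log2(signal + 15) with limma 3.58.1 under R 4.3.3, using a mean per group (8 residual degrees of freedom), trended eBayes and p-values adjusted by Benjamini-Hochberg across its tested probe sets, at a threshold of 0.05. The scripts were tested on simulated data.

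Genes were named from the platform annotation, which gave 1 symbol to 13247 of the tested MA and 12830 of the tested MB probe sets; probe sets with several symbols were not named. A gene with several was given by its brightest. Other probe sets are quoted for some genes only, and where none is quoted others may not have passed. Named genes were, per class, the 6, 6, 4, 4 and 6 largest interactions on MA (3, 3, 2, 2 and 3 on MB) among genes with a group mean at or above the trimmed mean, up to 4 per gene list, and Ddx5, Ddx17, Myod1, Myog, Ckm and Myh3. Any other gene was picked with its values in view. The members and the gene lists were chosen with earlier results of these data known. Lists are given by counts and medians, with no test of their own. Alternatives were other pseudocounts, filters, normalization, variance models, array weights, a replicate block and leaving out each array. Precision is limited by having 3 arrays per group. Deposited columns not used numbered 0.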

Additional observations from a re-analysis of the deposited data

Results flagged for a closer look

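The response to DM differed between the constructs by a test of the difference itself at 1430 probe sets on MA and 75 on MB, each adjusted over its design by limma. Among named genes, the responses of the constructs went opposite ways, each passing by itself, for Col18a1 (interaction 2.90), Gas6 (-2.39), Sat1 (-1.98), Tead2 (1.56), Olfm1 (1.51), Hes1 (1.498), Notch3 (1.31), Lamb1 (1.28), Tle1 (0.89) and Xbp1 (-0.77) on MA and for Mfap3l (2.29) on MB. Other probe sets did not all bear this out. Those of Xbp1 (-0.36, -0.15 and -0.07), Lamb1 (0.87 and 0.71) and Olfm1 (0.68 and 0.77) did not pass. A second one of Tle1 (0.99) and 1 of Mfap3l (2.36) were blunted falls, and another of Mfap3l did not pass (2.69). A second one of Notch3 was an enhanced rise (1.37), and a second one of Col18a1 was reversed as well (3.06). At the brightest probe set, the interaction of each of the 10 MA genes passed in all 12 fits that left out 1 array. It also passed under the other alternatives. Whether both responses still passed by themselves was not examined for each gene. Mfap3l lost its call where no mean-variance trend was fitted. In the GM group with the shRNA, 1 Hes1 array (84.15) stood apart from the other two (151.1 and 149.4), and groups of 3 were not tested for outliers.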

How the results depend on the processing

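Of the 1430 MA probe sets, between 1121 and 1425 were called again under the alternatives that kept all arrays, and between 899 and 1359 with 1 array left out. Array quality weights gave weights from 0.242 (replicate 3 of the vector group in DM) to 2.35 and raised every MA count: 1606 upwards and 1313 downwards in place of 787 and 643, with 1090 blunted rises, 1361 blunted falls, 182 enhanced rises, 168 enhanced falls and 94 reversed. Leaving out 1 array gave 512 to 1099 upwards, 404 to 946 downwards, 335 to 799 blunted rises, 447 to 947 blunted falls, 48 to 117 enhanced rises, 46 to 109 enhanced falls and 27 to 61 reversed, the lowest total (916) coming without replicate 2 of the shRNA group in DM and the highest (2045) without replicate 3 of the vector group in DM. On MB, without a mean-variance trend, each of these counts was 0. With 1 MB array left out they were 20 to 53 upwards, 14 to 32 downwards, 12 to 26 blunted rises, 14 to 44 blunted falls, 4 to 8 enhanced rises, 2 to 7 enhanced falls and 0 to 7 reversed. MB enhanced falls were 9 under quantile normalization, where 3 were reversed, and reversed genes were 7 with a filter at a signal of 100, 2 with robust eBayes and 5 with array weights. Deviations of same-numbered MA arrays correlated at -0.139 to 0.293 (median 0.0926), and of differently numbered ones at -0.277 to 0.204 (median -0.0245). On MB the ranges were -0.0391 to 0.0698 (median 0.0113) and -0.0638 to 0.0741 (median -0.00307). The ranges overlapped, and a pairing or batch by replicate number was not tested. With the replicate number as a block, 781 upward and 585 downward interactions passed on MA and 35 and 27 on MB. Of 110 named MA genes with a call, 89 kept it under every alternative, and of 17 on MB 10 kept it with each array left out and 0 under every alternative. In 1300 recomputed values of named genes with all arrays kept, 69 fell below the threshold, 5 rose above it and 0 changed sign with a call. Arrays give no count of molecules; the higher spread on MB limits what could be called there.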

Other observations

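Some further genes with an interaction that passed on MA belong to other groups. Of 25 genes of glutathione use and detoxification, 4 passed upwards and 2 downwards. The carbonyl reductase Cbr2 had signals of 578.2, 552.8 and 610.9 in GM and 269.5, 230 and 265.5 in DM with the vector, and 1137, 1172 and 1060 in GM and 1135, 1449 and 1330 in DM with the shRNA, an interaction of 1.35 ± 0.16. Gpx3, the secreted glutathione peroxidase, went the other way: it rose with the vector from 283.3, 276.9 and 293.7 to 512.1, 932.6 and 943.2, and with the shRNA was 930.8, 1270 and 1064 in GM and 827.3, 937.3 and 1029 in DM (-1.60 ± 0.27). The upward count of this list was 7 without replicate 3 of the vector group in DM.

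Of 17 immediate early genes, Klf4 (-1.03 ± 0.20) and Jun (-0.98 ± 0.21) passed downwards and Egr1 (1.18 ± 0.21) upwards. Eif4a2, a translation initiation factor and the 1 DEAD-box gene of 21 with a call, had -1.26 ± 0.29. None of 24 genes of TGF-beta, BMP and myostatin signalling and none of 17 ribosomal protein genes passed by limma. Over all MA probe sets tested 9.95% passed, so low counts in lists of this size are a description.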
